A study of Mus musculus with 12 samples.

Results

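Undifferentiated embryonic stem (ES) cells lacking *Terc*, the RNA template of telomerase, were compared with wild-type (WT) ES cells at day 0, before embryoid bodies were made. The comparison used every array labelled as KO or WT cells at day 0, which were 4 of the 12 arrays of the series, 2 per genotype. Each array held a different ES cell line, all on the C57BL/6 background. The WT lines were N12 and N33, both at passage 12. The KO lines were F35 and A49, both *Terc*-/- at passage 11 and labelled as generation G3/4. The study's methods place the mice behind F35 in G3 and those behind A49 in G4. According to the methods such lines were grown with LIF on mouse embryonic fibroblasts (MEF) that had been stopped from dividing with mitomycin C. Whether feeder cells were removed before RNA was taken is not stated in the sources used here. The other 8 arrays, of KO and WT cells differentiated for 8 or 15 days, entered here through the estimate of the spread between arrays and in the comparison with later days. With 1 array per line and 2 lines per genotype, genotype cannot be told apart from line, generation or passage. *Terc* itself had no probe set of its own among those named here, so the genotypes rest on the labels.

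Telomerase adds repeats to chromosome ends with the protein Tert and the template RNA Terc. Mice without *Terc* are viable in early generations, and their telomeres shorten from one generation to the next. Short or uncapped telomeres are sensed as DNA damage, which can activate p53, the transcription factor that drives genes of cell cycle arrest and death. ES cells depend on telomerase for long culture, and they hold their undifferentiated state through Pou5f1, Sox2 and Nanog. A small share of ES cells passes at any time through a two-cell-like state, in which *Zscan4*, *Tcstv1*, *Tcstv3* and other genes of the early embryo are active and telomeres can lengthen. *Tcstv1* and *Tcstv3* lie close to the distal end of chromosome 13, on the same chromosome as *Fst*, which encodes follistatin, a secreted antagonist of activin and BMP.

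Of 45101 probe sets, 64 controls were left out and 45037 were compared. Each gene was read from its brightest probe set, which gave 18193 genes. An intensity is the summarised brightness of a probe set on a linear scale, and differences are on the log2 scale, KO minus WT, with the standard error (SE) and the Benjamini-Hochberg adjusted p of limma over all probe sets. Because 2 arrays per genotype leave little power, each gene was also described by whether both KO arrays lay above, or both below, both WT arrays. The day 0 arrays had correlations of 0.986 to 0.994 with each other. Within WT, 355 probe sets stood at least 1.8-fold apart between N12 and N33, and within KO 565 stood so between F35 and A49. Line A49 was farthest from the rest, with 1485 probe sets 1.8-fold apart from N12 and 1495 from N33, against 429 and 423 for F35.

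The fibroblast genes differed first. Of 20 genes of fibroblasts, 18 had both KO arrays above both WT arrays, against 31.7% of all genes. None of the 20 had both below, against 16.9% of all genes, and their median difference was 0.82. Their summed intensity was 9662 in N12, 12409 in N33, 14197 in F35 and 21693 in A49, so the lines stood in an order in which KO followed WT but N33 and F35 lay close together. *Col1a1*, a chain of the main fibrillar collagen, read 169 in N12, 288 in N33, 323 in F35 and 541 in A49. *Thy1*, a surface marker of fibroblasts, read 376, 606, 685 and 1219 in the same order. The exceptions were *Col1a2* and *Dcn*, in which N33 read above F35. None of the 20 passed the adjusted p. The ES cell genes did not follow this order: the summed intensity of 10 core pluripotency genes was 45620, 45229, 45809 and 48692 in N12, N33, F35 and A49. In a bulk sample, fewer cells of a type and less RNA per cell cannot be told apart. For the lists that stood farthest from the background, the median of F35 minus N33, the pair closest in fibroblast genes (0.19 for the fibroblast list itself), and the median at an equal fibroblast level, from a fit with that level as a covariate, are given beside the difference of the genotypes. The latter rests on 4 arrays and 1 degree of freedom at day 0, and after it the fibroblast list had a median of −0.06. That small median follows from the construction, because the level is the mean of the same 20 genes, so it is no check of the fit. The fibroblast level (mean log2) was 8.11 in N12, 8.61 in N33, 8.81 in F35 and 9.43 in A49. The fit therefore cannot fully separate this level from differences found in A49 or N12 alone. Without N12 the fibroblast median was 0.48 and without A49 it was 0.46.

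**Figure D1:**
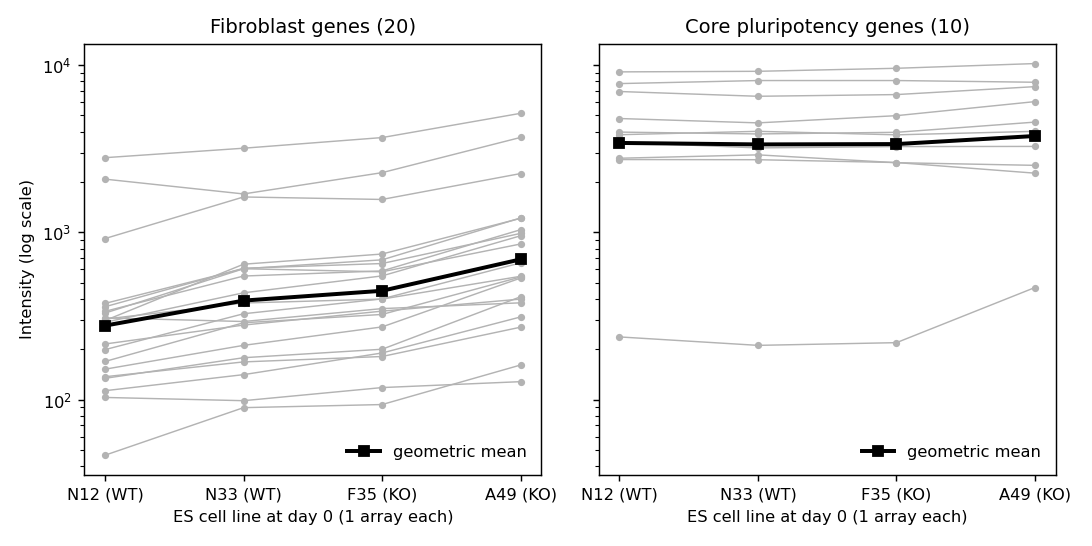
Intensity (log scale) of 20 fibroblast genes (left) and 10 core pluripotency genes (right) on the day 0 array of each ES cell line. Grey lines are single genes and the black line is their geometric mean. The fibroblast genes were lowest in N12 and highest in A49, with N33 and F35 between them, while the pluripotency genes stayed level.

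By adjusted p, 10 probe sets were higher in KO (0.0222% of those tested) and 12 were lower (0.0266%). At least 1.8-fold, 235 were higher (0.522%) and 275 lower (0.611%), with no test. Over genes, 5769 of 18193 had both KO arrays above both WT arrays (31.7%) and 3075 had both below (16.9%). These shares are the background against which the lists are read. They depend on the scaling: after each array was centred on its median they were 23.6% above and 24.1% below, and after quantile normalization 26.7% and 20.2%. The median difference of all genes was 0.04, against 0.00 after centring. Without adjustment, 3870 probe sets had a p under 0.05 by limma, and 5901 did when limma was fitted to the day 0 arrays alone.

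**Figure D2:**
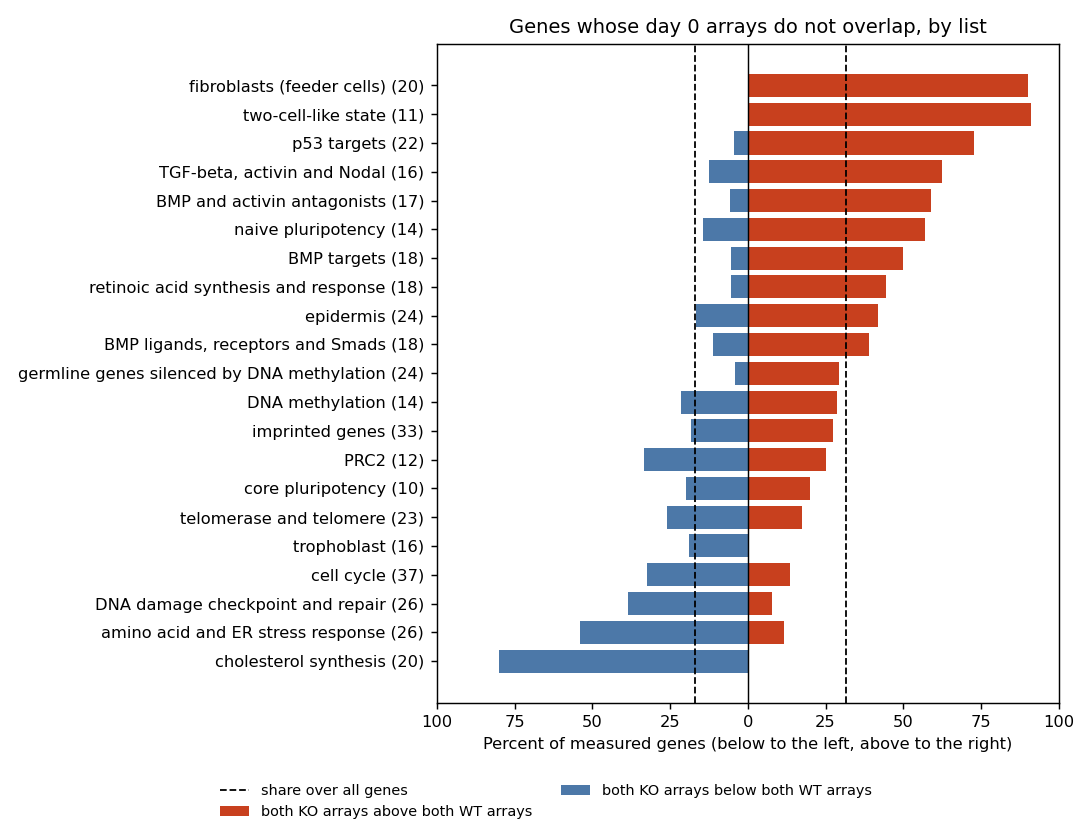
Percent of the measured genes of each list (number in brackets) with both KO arrays above both WT arrays (right, red) or both below (left, blue) at day 0. Dashed lines mark the shares over all 18193 genes, 31.7% above and 16.9% below. Fibroblast, two-cell-like and p53 target genes reached farthest to the right and cholesterol synthesis genes farthest to the left.

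In all, 6 genes passed on their brightest probe set. *Aldh1a2*, which makes retinoic acid from retinaldehyde, was 70.6 in N12, 62.6 in N33, 221 in F35 and 208 in A49. The KO lines were alike and far above the WT lines, with a log2 difference of 1.69 (SE 0.16, adjusted p = 0.0140). It was the only call when the 4 day 0 arrays were fitted alone (adjusted p = 0.0416). *Rtkn*, which encodes rhotekin, read 173, 174, 338 and 443 in N12, N33, F35 and A49, a difference of 1.16 (SE 0.15, adjusted p = 0.0454). *Cnnm3*, a cyclin M family protein linked to magnesium transport, read 244, 198, 428 and 496, a difference of 1.07 (SE 0.14, adjusted p = 0.0454), and 2 of its 4 probe sets had both KO arrays above. *Prss58*, a serine protease gene, was dim at 37.1, 29.1, 66.9 and 67.1, a difference of 1.03 (SE 0.14, adjusted p = 0.0454). *1700123O21Rik* was the gene that fell, at 9.02, 9.84, 3.86 and 4.58, which is far under the median intensity of the arrays (difference −1.16, SE 0.16, adjusted p = 0.0454). The remaining gene, *Tcstv1*, is given with the two-cell-like genes. At an equal fibroblast level *Aldh1a2* had a difference of 1.85, *Rtkn* 0.86 and *Cnnm3* 1.09, and none of the 6 genes passed (limma adjusted p of 0.154 or more).

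Another 13 genes passed on a probe set that was not their brightest, 3 of them higher and 10 lower. *Evi5*, a regulator of cell division, read 1064 in N12, 1062 in N33, 557 in F35 and 374 in A49 on the probe set that fell. Its brighter probe set differed by −0.10. *Pdpk1*, the kinase that activates Akt, read 310, 329, 166 and 143, while its brighter probe set differed by 0.14. For all 13 genes the brightest probe set differed by −0.10 to 0.14, with an adjusted p of 0.845 or more, so none of these calls was shared by the gene's brightest probe set. Of all 22 called probe sets, 12 had a mean under the median intensity and 7 lay under 16 on every day 0 array. Probe sets that dim had a within-group SD of 0.40 to 0.44 (log2) at day 0 and 0.16 to 0.23 later, so the pooled fit takes their spread as smaller than the day 0 arrays show. Among genes with more than 1 probe set above the median intensity, 2787 of 4851 had all of these on the same side.

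Most measured genes of the two-cell-like state were higher in both KO lines, several of them by little. Of 28 listed genes, 11 had a probe set of their own, and 10 of the 11 had both KO arrays above both WT arrays, against 31.7% of all genes. The listed *Zscan4* genes (*Zscan4c*, *Zscan4d* and *Zscan4f*) were not among the 11. Their median difference was 0.36 (F35 minus N33 0.25, equal fibroblast level 0.16), and it was 0.19 without N12 and 0.55 without N33. *Tcstv1* read 25.9 in N12, 21.4 in N33, 63.2 in F35 and 106 in A49 and was the one member to pass (difference 1.8, SE 0.22, adjusted p = 0.0378, against 1.41 and an adjusted p of 0.714 at an equal fibroblast level). *Tcstv3*, its neighbour, read 22.1, 24.1, 42.2 and 71.9 (difference 1.25, SE 0.32, adjusted p = 0.214). Both were dim, and A49 read above F35. *Usp17la*, a deubiquitinase gene of a large family, read 87.5, 72.3, 182 and 526 (difference 1.96, SE 0.42, adjusted p = 0.159). *AF067061*, a gene beside *Tcstv1* and *Tcstv3*, read 96.9, 57.6, 188 and 404 (difference 1.88, SE 0.32, adjusted p = 0.0772). A smaller gap was seen for *Eif1a*, a translation initiation factor gene, at 3224, 3086, 3422 and 3607. *Zfp352* (difference 0.17), *Duxf3* (0.07) and *Sp110* (0.07) also lay above by little, against a median of 0.04 for all genes. The exception was *Tdpoz1*, at 17.5, 19.7, 15.1 and 25.5. After median centring 8 of the 11 remained above and none below. The members with the largest differences belong to families of near-identical copies, between which probes may not separate.

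Of the 11 two-cell-like genes, *Tcstv1*, *Tcstv3* and *AF067061* lie near the distal end of chromosome 13. Of 29 measured genes between *Fst* and the distal end of chromosome 13, 10 had both KO arrays above both WT arrays (34.5%). Another 8 had both below (27.6%), against 31.7% and 16.9% of all genes, and the median of the 29 was −0.04. The 8 genes nearest the end, a group set apart after its values were seen, held 7 of the 10 and none of the 8 lower ones, with a median difference of 0.90. They include the two-cell-like genes *Tcstv1*, *Tcstv3* and *AF067061*, and probes may not separate near-identical copies. The parts of nearness to the end, the two-cell-like state and shared probes in these differences were not tested. *Gm20767* read 43.0 in N12, 30.7 in N33, 114 in F35 and 236 in A49 (difference 2.18, SE 0.33, adjusted p = 0.0652). *D13Ertd608e* read 70.7, 59.3, 80.2 and 112, a narrower gap. The other 21 genes had 3 above and 8 below, with a median of −0.11. Of 380 genes near the distal ends of the other chromosomes, 32.4% lay above and 16.8% below, close to the shares over all genes. With 20 genes at each distal end, the medians of the 20 chromosomes lay between −0.06 and 0.14.

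**Figure D3:**
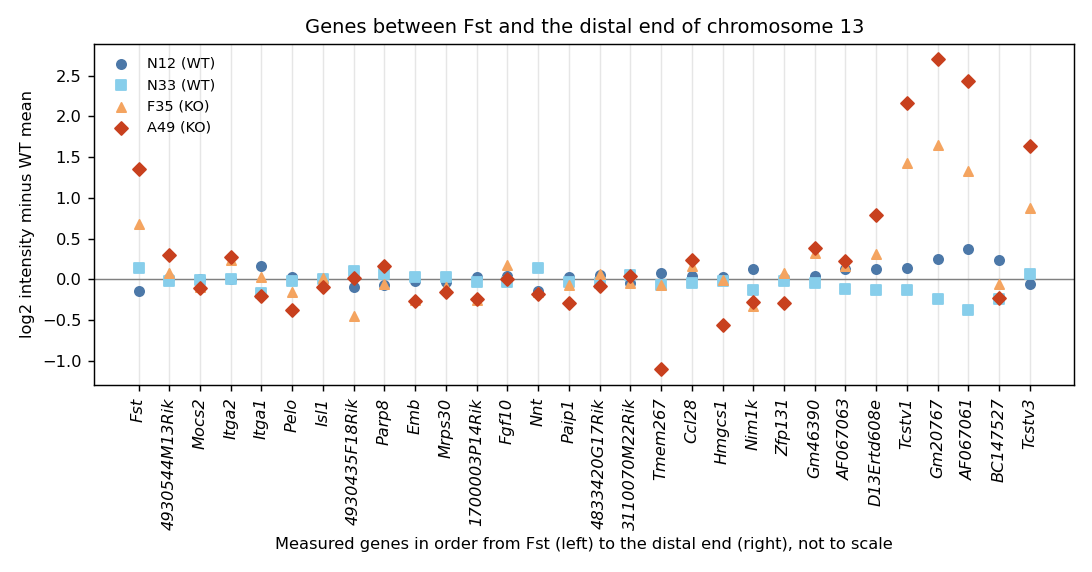
log2 intensity minus the mean of the WT arrays for *Fst* and the 29 measured genes distal to it on chromosome 13, in gene order and not to scale, with 1 point per ES cell line. The 8 genes at the right-hand end had KO points above WT points in 7 cases, and most genes between them and *Fst* lay near 0.

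*Fst* itself read 131 in N12, 159 in N33, 232 in F35 and 370 in A49 on its brighter probe set, with both KO lines above both WT lines and A49 highest. The difference was 1.03 (SE 0.32) and did not pass (adjusted p = 0.335). Its other probe set read 89.5, 102, 84.9 and 107, with no difference (0.00) and overlapping genotypes. *Fst* is also made by fibroblasts, and at an equal fibroblast level the difference was 0.36, with 0.55 for F35 minus N33. The part of the feeder cells in this difference was not tested.

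Among 17 measured antagonists of BMP and activin, 10 lay above, 1 below and none passed, with a median of 0.14 (F35 minus N33 0.07, equal fibroblast level 0.01). That was 58.8% above and 5.88% below, against 31.7% and 16.9% of all genes. *Fstl1*, a follistatin-like glycoprotein of mesenchymal cells, read 1616, 1644, 1994 and 2890 in N12, N33, F35 and A49. *Nog* (noggin) read 59.0, 54.1, 63.1 and 61.6, and *Chrd* (chordin) overlapped at 105, 116, 106 and 115. Those values were dim and nearly level. Of 18 BMP ligands, receptors and Smads, 7 lay above (38.9%) and 2 below (11.1%), near the shares of all genes (median 0.07). *Bmp4* overlapped between the genotypes, at 581, 450, 490 and 300, and was lowest in A49. Of 18 BMP targets 9 lay above (50.0%) and 1 below (5.56%), with a median of 0.12. *Id3*, an inhibitor of differentiation induced by BMP, read 893, 867, 1008 and 2419, so that most of its difference of 0.83 (SE 0.33, adjusted p = 0.506) came from A49. *Id2* read 1378, 1138, 1834 and 1494, with F35 the higher of the KO lines.

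In the TGF-beta, activin and Nodal list, 10 of 16 lay above and 2 below, with a median of 0.18 (F35 minus N33 0.11, equal fibroblast level 0.08). That was 62.5% above and 12.5% below, against 31.7% and 16.9% of all genes. *Nodal*, the ligand that ES cells make themselves, read 1711 in N12, 1609 in N33, 2157 in F35 and 3337 in A49 (difference 0.69, SE 0.28, adjusted p = 0.517). Both its probe sets had the KO arrays above. *Tgfbr2*, the type II receptor of TGF-beta, read 156, 178, 213 and 336. *Acvr2b*, an activin type II receptor, went the other way at 642, 666, 529 and 453. No member passed the adjusted p.

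Targets of p53 were higher in both KO lines, by about as much in the pair closest in fibroblast genes. Of 22 measured targets, 16 had both KO arrays above both WT arrays and 1 below, against 31.7% and 16.9% of all genes, and none passed the adjusted p. Their median difference was 0.30, with 0.28 for F35 minus N33 and 0.36 at an equal fibroblast level, and F35 read above N33 in 20 of the 22. *Cdkn1a*, the p21 inhibitor of cyclin-dependent kinases, read 1507 in N12, 1612 in N33, 2632 in F35 and 2957 in A49 (difference 0.84, SE 0.23, adjusted p = 0.256), and both its probe sets agreed. *Mdm2*, the ubiquitin ligase that degrades p53, read 2241, 2023, 3401 and 2971 (difference 0.58, SE 0.26, adjusted p = 0.582). *Pmaip1*, the death-promoting BH3 protein Noxa, read 2706, 2501, 4238 and 4985 (difference 0.82, SE 0.24, adjusted p = 0.293). In all 3 genes the KO lines lay close together and well clear of WT. *Phlda3*, a repressor of Akt, read 1223, 1188, 1832 and 1827, the most even of the group (difference 0.60, SE 0.13, adjusted p = 0.138). *Plk2*, a polo-like kinase, read 667, 642, 1289 and 1248 on the brighter of 2 probe sets. *Ccng1*, cyclin G1, read 2978, 3209, 4340 and 4724 on the brightest of 3 probe sets, all of which had the KO arrays above. The member below was *Sesn2*, at 644, 583, 565 and 441, and *Gadd45a* overlapped at 2467, 2357, 2450 and 1158, low in A49 alone. After median centring 14 of the 22 lay above and 2 below, and after quantile normalization 15 and 1.

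The promoter of *Cdkn1a* is shown because it was the one target whose promoter window matched the p53 site pattern used here. Promoters of RefSeq (GRCm38.p6) matched 17 of the 22 targets, and each was searched on both strands for the p53 site, which is a pair of half-sites, here at most 13 bases apart. *Cdkn1a* was the 1 gene of 17 with a match, against 18 of 27025 genes overall (0.0666%). The stretch lies at chr17:29090876-29090967 on the plus strand, and the capitals run from the first matched half-site to the second, with the bases between them. The 10 bases directly after the capitals fit the half-site pattern except at the first, a T where A or G was required. They follow the second half-site without a gap but were not matched. Which of these bases p53 binds was not tested.
Cdkn1a: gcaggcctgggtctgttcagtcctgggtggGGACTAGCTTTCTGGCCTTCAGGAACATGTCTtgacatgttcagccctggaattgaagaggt
Most p53 sites lie outside so short a window, so the lack of a match in the others is a statement about this window alone.

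**Figure D4:**
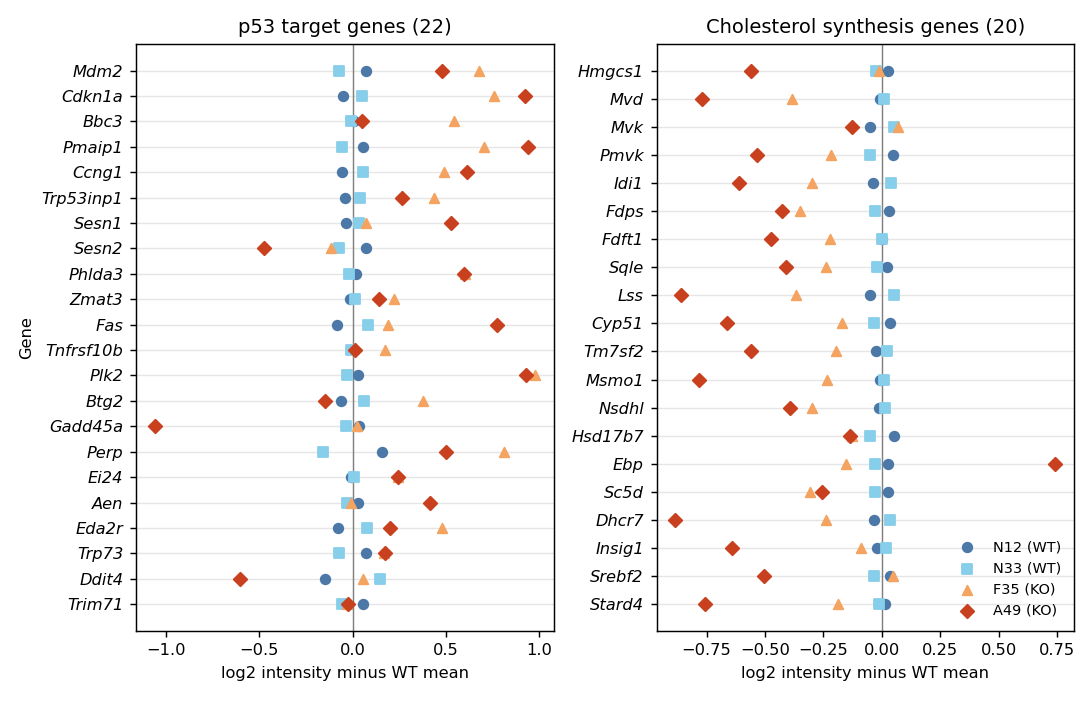
log2 intensity minus the mean of the WT arrays for 22 p53 target genes (left) and 20 cholesterol synthesis genes (right), with 1 point per ES cell line. For the p53 targets both KO lines lay right of WT in 16 genes, and for cholesterol synthesis both lay left of WT in 16, with A49 farther left than F35 in most.

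Cholesterol synthesis genes were lower in the KO lines. Of 20 measured genes, 16 had both KO arrays below both WT arrays and none above, against 16.9% and 31.7% of all genes. The median difference was −0.37, with −0.22 for F35 minus N33 and −0.13 at an equal fibroblast level, and none passed the adjusted p. The median was −0.55 without F35 and −0.22 without A49. *Lss*, lanosterol synthase, read 653 in N12, 701 in N33, 524 in F35 and 373 in A49 (difference −0.61, SE 0.23, adjusted p = 0.440), and all 3 of its probe sets had the KO arrays below. *Mvd*, which forms isopentenyl diphosphate, read 584, 592, 450 and 345 (difference −0.58, SE 0.23, adjusted p = 0.488). *Msmo1*, a sterol C4-methyl oxidase, read 1545, 1564, 1320 and 903 (difference −0.51, SE 0.16, adjusted p = 0.344). The WT lines were nearly equal and A49 lay farther down than F35. The same order was seen for *Dhcr7*, the last enzyme of the pathway, at 952, 1000, 827 and 529. *Fdps*, farnesyl diphosphate synthase, read 2841, 2726, 2185 and 2070, and *Sqle*, the rate-limiting squalene epoxidase, 1462, 1417, 1219 and 1082. The 4 genes that overlapped were *Hmgcs1*, *Mvk*, *Ebp* and *Srebf2*, the last of which encodes the transcription factor of the pathway and read 1223, 1166, 1236 and 842. *Ebp* stood apart, with 667, 642, 588 and 1095, highest in A49. Under median centring and under quantile normalization 17 of the 20 lay below and none above.

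The promoters of this pathway shared a feature that the choice of genes did not use. Genes of cholesterol synthesis are known to be driven by SREBP-2 together with NF-Y, which binds the CCAAT box. Promoters of RefSeq matched 16 of the 20 genes. All 16 held CCAAT on one strand or the other within the 250 bases before the start, against 37.5% of 27025 genes. The 4 genes that overlapped between the genotypes held it as well, so its presence did not separate the genes that were lower from those that were not. One form of the sterol element, TCACNCCAC, was in 1 of the 16 and in 1.22% of all genes. For comparison, 10 of 17 p53 target promoters held CCAAT. The 150 bases before the start are given for 4 genes with some of the largest gaps, in the direction of transcription (GRCm38.p6), with CCAAT or its complement ATTGG in capitals. They are *Lss* (chr10:76531455-76531604, plus strand), *Mvd* (chr8:122443423-122443572, minus strand), *Msmo1* (chr8:64733579-64733728, minus strand) and *Idi1* (chr13:8885456-8885605, plus strand).
Lss: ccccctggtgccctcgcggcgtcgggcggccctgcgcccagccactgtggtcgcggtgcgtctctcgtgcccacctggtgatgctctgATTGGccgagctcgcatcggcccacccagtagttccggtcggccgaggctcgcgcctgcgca
Mvd: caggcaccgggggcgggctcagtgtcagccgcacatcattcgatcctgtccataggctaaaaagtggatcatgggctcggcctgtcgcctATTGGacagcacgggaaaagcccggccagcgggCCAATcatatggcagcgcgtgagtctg
Msmo1: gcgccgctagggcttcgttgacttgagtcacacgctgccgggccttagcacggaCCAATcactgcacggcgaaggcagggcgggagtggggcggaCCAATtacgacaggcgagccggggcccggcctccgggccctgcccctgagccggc
Idi1: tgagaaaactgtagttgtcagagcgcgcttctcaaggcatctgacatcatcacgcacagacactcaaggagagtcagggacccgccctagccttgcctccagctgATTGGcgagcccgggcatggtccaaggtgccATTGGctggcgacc
*Idi1*, isopentenyl diphosphate isomerase, read 1814 in N12, 1910 in N33, 1512 in F35 and 1220 in A49 on its brighter probe set. Its other probe set, of similar brightness, overlapped between the genotypes at 1531, 1947, 1603 and 1173. In the *Lss* sequence the box occurs once, and in the other 3 it occurs at 2 places.

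Genes of the amino acid and endoplasmic reticulum (ER) stress response also leaned down, with 14 of 26 below and 3 above (median −0.10, F35 minus N33 −0.09, equal fibroblast level −0.06). That was 53.8% below and 11.5% above, against 16.9% and 31.7% of all genes. *Trib3*, a pseudokinase induced by stress, read 1497, 1500, 1300 and 868 in N12, N33, F35 and A49. The genes above included *Atf3*, a stress-induced transcription factor, at 612, 423, 653 and 780, and *Cebpb*, another transcription factor, at 827, 960, 1070 and 1212. *Nupr1*, a stress-induced chromatin protein, read 2674, 2594, 2033 and 1991 (difference −0.39, SE 0.19, adjusted p = 0.620). *Psat1* and *Phgdh*, enzymes of serine synthesis, read 4864, 5212, 4166 and 4245, and 4167, 4376, 3534 and 3755. All 4 probe sets of *Phgdh* had the KO arrays below. Of 26 genes of the DNA damage checkpoint and repair, 10 lay below (38.5%) and 2 above (7.69%), with a median of −0.09. Of 37 cell cycle genes 12 lay below (32.4%) and 5 above (13.5%), with a median of −0.06. Over all genes the shares were 16.9% below and 31.7% above. After median centring 13 of the 26 lay below and 0 above, and 19 of the 37 lay below and 4 above. All genes then had 24.1% below and 23.6% above. *Atm*, the kinase that senses double-strand breaks, was level at 513, 502, 506 and 496. *Rb1*, the retinoblastoma protein that restrains entry into S phase, was among the few above, at 526, 542, 861 and 872 (difference 0.70, SE 0.19, adjusted p = 0.235), though only on 1 of its 2 probe sets. Of 23 genes of telomerase and telomeres (median −0.01), 4 lay above (17.4%) and 6 below (26.1%), against 31.7% and 16.9% of all genes. *Tert*, the catalytic subunit, overlapped at 309, 374, 362 and 375.

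Regulators of chromatin moved little as lists. Of 14 genes of DNA methylation 4 lay above and 3 below, and of 12 genes around the polycomb complex PRC2 3 lay above and 4 below. Single genes had a fixed side on every probe set. *Dnmt3a*, a de novo DNA methyltransferase, had the KO arrays below on all 5 of its probe sets. The brightest read 2023, 1809, 1704 and 1713 in N12, N33, F35 and A49 (difference −0.16, SE 0.15), and the next, 2067, 1947, 1220 and 980 (difference −0.87, SE 0.19). *Dnmt3b*, its partner enzyme, was below on both, at 4602, 5024, 4255 and 3337 (difference −0.35, SE 0.24, adjusted p = 0.764) and at 3208, 3609, 2560 and 1629 (difference −0.74, SE 0.39). The sizes depended on the probe set while the side did not. *Suz12*, a core subunit of PRC2, was below on all 6 probe sets, of which the brightest read 3467, 3484, 2790 and 2549 (difference −0.38, SE 0.15, adjusted p = 0.488). Its differences ran from −1.05 to −0.23. *Eed*, another core subunit, was level at 3624, 3530, 3607 and 3524. *Ezh1*, a catalytic subunit, overlapped on its brightest probe set, at 607, 687, 647 and 512. Of its 4 probe sets 1 had the KO arrays above and 2 below. Of 24 germline genes that DNA methylation keeps silent in somatic cells, 7 lay above (29.2%) and 1 below (4.17%). *Dazl*, an RNA-binding protein of germ cells, read 162, 138, 195 and 313.

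*Ezh2*, the catalytic subunit of PRC2, read 2905 in N12, 3025 in N33 and 2927 in F35 but 1689 in A49. It lies on chromosome 6 in a stretch where many genes were low in A49 alone. This was found by taking the genes above the median intensity in their order along each chromosome, in 294 windows of 40 neighbours. In the first 6 windows from the proximal end of chromosome 6, which hold 240 genes from *Gm8579* to *Suclg1*, the median of A49 minus the mean of the other 3 lines was −0.48 to −0.25. In all other windows the same measure lay between −0.10 and 0.16 in every line. Of the 240 genes A49 was the lowest line in 159 (66.2%), against 31.5% on the rest of chromosome 6 and 29.3% on the other chromosomes. The median of A49 minus WT was −0.32 in the stretch and 0.03 on the rest of chromosome 6, while that of F35 minus WT was 0.04 and 0.02. The windows and the limits of the stretch were set after the values were seen, so these values are a description of 1 array, and DNA copy number was not measured.

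**Figure D5:**
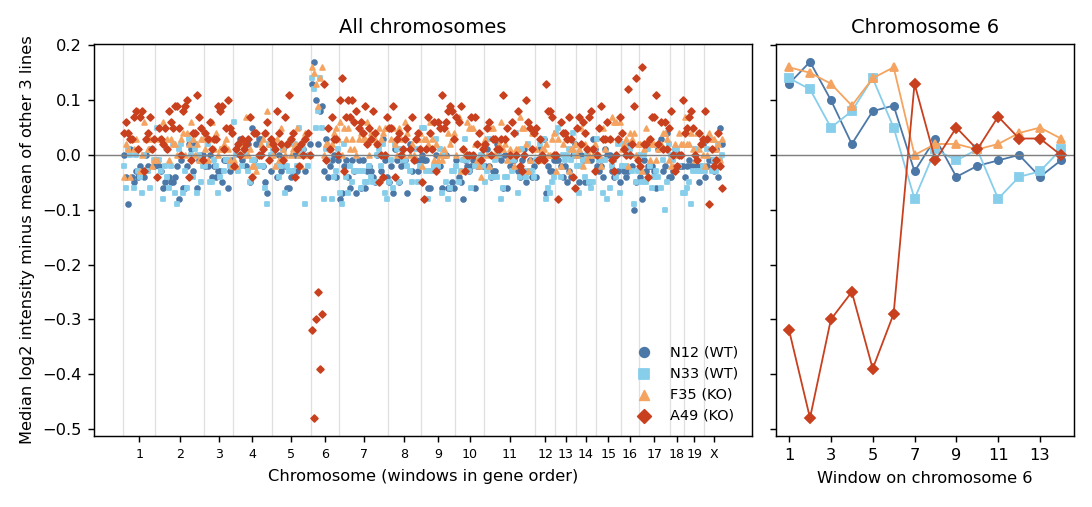
Median over windows of 40 neighbouring genes of each line's log2 intensity minus the mean of the other 3 lines, along all chromosomes (left) and along chromosome 6 from its proximal end (right). In the first 6 windows of chromosome 6, A49 lay between −0.48 and −0.25, and in all other windows every line stayed between −0.10 and 0.16.

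Several genes that read low in KO as a mean lie in that stretch and were low mainly in A49. *Pot1a*, a shelterin protein that caps telomeres, read 809 in N12, 849 in N33, 749 in F35 and 359 in A49, with the KO arrays below on all 4 probe sets. *Mest*, an imprinted gene expressed from the paternal allele, read 644, 644, 572 and 163. *Asns*, asparagine synthetase, read 6061, 6136, 5430 and 3881. *Tcf7l1*, a repressor of Wnt targets in ES cells, read 1632, 1807, 1619 and 962, and *Gadd45a* lies there too. In each of these F35 lay nearer to WT than to A49. Leaving the stretch out changed no count for the two-cell-like and cholesterol synthesis lists and left p53 targets at 16 of 21 above and 1 below. At an equal fibroblast level the differences of *Ezh2* (0.14), *Mest* (0.27), *Pot1a* (0.07), *Tcf7l1* (0.01) and *Gadd45a* (0.32) were on the other side of 0, while that of *Asns* was −0.06. A49 also had the highest fibroblast level, so this fit cannot separate a low value in A49 alone from that level.

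Core pluripotency genes were near level. *Pou5f1* read 6954, 6512, 6666 and 7436 in N12, N33, F35 and A49, and *Sox2* read 7755, 8086, 8088 and 7900. Of 10 core genes 2 lay above and 2 below (median 0.04). The core genes above were *Nanog*, at 4794, 4515, 4986 and 6051 (difference 0.24, SE 0.36), and *Tdgf1* (difference 0.11). The core genes below were *Zfp281*, a zinc finger factor, at 2725, 2719, 2615 and 2259, and *Lin28a*, an RNA-binding protein, at 2775, 2907, 2610 and 2516. Of 14 naive pluripotency genes, which mark the ground state of the pre-implantation embryo, 8 lay above and 2 below, with a median of 0.18 (F35 minus N33 0.10, equal fibroblast level 0.05), and 0.07 without A49. That was 57.1% above and 14.3% below, against 31.7% and 16.9% of all genes. *Tbx3* read 914, 851, 1101 and 2529, and *Prdm14*, a repressor of differentiation, 304, 305, 306 and 569. Both were high in A49 and closer to WT in F35. *Dppa3*, the maternal factor Stella, was below, at 2513, 2730, 2407 and 1517. *Esrrb*, an orphan nuclear receptor, was higher by the same small amount in both lines, at 2566, 2487, 2846 and 2951. No member of these lists passed.

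Genes of retinoic acid handling other than *Aldh1a2* differed less. Of the other 17, 7 lay above and 1 below, against 31.7% and 16.9% of all genes, with a median of 0.09. Those above included *Rxra* (difference 0.35) and *Aldh1a1* (0.29), and *Stra8* (−0.21) lay below. *Crabp1*, a retinoic acid binding protein, read 1070 in N12, 1319 in N33, 1776 in F35 and 2606 in A49 (difference 0.86, SE 0.35, adjusted p = 0.521). *Cyp26a1*, the enzyme that degrades retinoic acid and is itself induced by it, overlapped at 87.4, 72.0, 79.2 and 79.4, as did the receptor gene *Rarb* at 29.1, 29.2, 27.0 and 32.8. Both were dim. The synthesis gene *Aldh1a2* was higher, while a difference in these induced genes was not detectable with these arrays.

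Further single genes had wide gaps between the genotypes. On the upper side, *Ereg*, the EGF family ligand epiregulin, read 158 in N12, 186 in N33, 324 in F35 and 510 in A49 (difference 1.24, SE 0.26, adjusted p = 0.115). *Egr3*, an early growth response transcription factor, read 73.0, 65.0, 127 and 230 (difference 1.31, SE 0.27, adjusted p = 0.117). *Fosl1*, the AP-1 subunit Fra-1, read 139, 135, 217 and 218 (difference 0.67, SE 0.13, adjusted p = 0.0961). For *Egr3* and *Fosl1* both probe sets had the KO arrays above. Of the 24 genes of FGF and ERK signalling 10 lay above (41.7%) and 1 below (4.17%), against 31.7% and 16.9% of all genes. On the lower side were *Ube3a*, an imprinted ubiquitin ligase, at 1212, 1418, 800 and 629 (difference −0.89, SE 0.14, adjusted p = 0.0652) and *N6amt1*, a methyltransferase, at 251, 264, 164 and 153 (difference −0.70, SE 0.13, adjusted p = 0.0772), both with another probe set on the opposite side. *Cpsf2*, a subunit of the complex that cleaves mRNA 3′ ends, read 720, 734, 497 and 400 and was below on all 3 probe sets (difference −0.71, SE 0.13, adjusted p = 0.0740). *Knl1*, a kinetochore scaffold, was below on both, at 525, 568, 361 and 286.

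Of 33 imprinted genes, 9 lay above (27.3%) and 6 below (18.2%), near the 31.7% and 16.9% of all genes. *Nnat*, neuronatin, read 878 in N12, 567 in N33, 406 in F35 and 316 in A49. *Plagl1*, a zinc finger growth regulator, read 594, 543, 895 and 1371, and the noncoding RNA *Meg3* 1049, 1460, 1565 and 2580. *Igf2*, the fetal growth factor, differed most within WT, at 2649 and 778, against 2332 and 1543 in KO.

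Markers of other lineages showed how far lines of a genotype can stand apart. For 10 of 16 trophoblast genes and 12 of 22 primitive endoderm genes N12 read above N33 and F35 above A49, against 21.8% of all genes. *Krt8* and *Krt18*, keratins of simple epithelia, read 4915, 1573, 2939 and 2237, and 5636, 1895, 3535 and 2353 in N12, N33, F35 and A49. *Cubn*, the endocytic receptor cubilin of visceral endoderm, read 592, 89.0, 379 and 201. *Hand1*, a transcription factor of trophoblast giant cells, read 358, 125, 362 and 188. In these genes the WT lines lay farther apart than the KO lines did. No trophoblast gene had both KO arrays above WT, against 31.7% of all genes. Among epidermal genes, *Trp63*, the p63 regulator of stratified epithelia, and the keratins *Krt14* and *Krt1* were dim and overlapped, at 109, 93.8, 101 and 96.5, at 92.3, 93.4, 89.0 and 93.0, and at 110, 101, 103 and 100. Of 24 epidermal genes 10 lay above (41.7%) and 4 below (16.7%), against 31.7% and 16.9% of all genes, with a median of 0.05. Those above included *Perp* (difference 0.66), *Krt6a* (0.40) and *Krt4* (0.30), and those below included *Itga6* (−0.12). *Six3*, a homeobox gene of the forebrain, was high in F35 alone on 1 of its 3 probe sets, at 87.9, 92.4, 504 and 94.9. Its other probe sets read 109 and 47.4 in F35, within the range of the other lines. The Y-linked gene *Kdm5d*, a histone demethylase, read 110, 118, 143 and 336, highest in A49, and *Uty* read 192, 214, 206 and 290. *Xist*, the RNA that silences an X chromosome, read 318, 371, 458 and 448.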

How the data were processed

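RNA from each ES cell line was hybridised to an Affymetrix mouse 430 2.0 array, and the authors deposited a linear intensity per probe set. MAS5 stands in the submitters' processing notes, with version and scaling not given in the sources used here. Medians were 114 to 117 on the day 0 arrays and 50.6 to 53.1 later, so levels were not compared across days. Arrays have no read depth, and their number limits the precision. Intensities under 1 were set to 1 and log2-transformed. limma 3.58.1 in R 4.3.3 (lmFit, eBayes with trend and robust) fitted 1 mean per group over all 12 arrays, with Benjamini-Hochberg adjustment over 45037 probe sets and a threshold of 0.05, and was tested on simulated data. P-values measure only the spread between these arrays. Platform annotation gave 34945 probe sets a single gene, 932 several and 9160 none. Gene order came from RefSeq. Of 709 entries in 34 gene lists, 645 were measured. The naming rule took genes the study names, genes past the threshold, and up to 10 per direction with the widest gap. It also took up to 6 members per list with the largest non-overlapping difference, fibroblast and two-cell-like genes, and line-varying X-linked, Y-linked and imprinted genes. Not every gene under this rule is given in the text. Members named beyond this rule (such as genes that were level, exceptions, *Six3* and the chromosome 6 genes) were chosen after their values were seen. Members and lists were chosen with earlier results of these data known.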

Additional observations from a re-analysis of the deposited data

Results flagged for a closer look

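The 6 genes called on their brightest probe set also differed between day 0 and the later days. The test was the interaction in the same limma fit, the KO minus WT difference at day 0 minus the mean of those at days 8 and 15, for which the scaling of each day cancels. For *Aldh1a2* it was 2.14 (adjusted p = 0.00272), with a KO minus WT difference of 0.29 at day 8 and −1.19 at day 15. It was 1.71 for *Tcstv1* (adjusted p = 0.0156), 1.19 for *Rtkn* (adjusted p = 0.0159), 1.10 for *Cnnm3* (adjusted p = 0.0164), 0.93 for *Prss58* (adjusted p = 0.0315) and −1.17 for *1700123O21Rik* (adjusted p = 0.0177). The last 5 of these had differences between −0.11 and 0.18 on the later days. Because these genes were selected by their day 0 difference, the size of the interaction is not independent of that choice. *Fst* did not pass (1.51, adjusted p = 0.0925).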

How the results depend on the processing

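Calls by adjusted p were few and moved with nearly every setting, and none of the 22 probe sets passed in all. Counts higher and lower were 10 and 12 as reported, 1 and 0 with the day 0 arrays alone, 142 and 151 with an offset of 32 added before the logarithm, 1 and 0 on brighter probe sets, 3 and 0 with the replicate block, 3 and 2 at an equal fibroblast level, and 32 and 62 with that level centred within genotype, which by its construction changes the spread but not the difference. The count lower was 24 after median centring and 5 without trend and robust fitting. The t-test left 0 after adjustment, with 3767 under an unadjusted p of 0.05. Leaving out 1 line gave 14 to 230 higher and 6 to 443 lower, with 230 and 443 without F35, 21 and 6 without A49, 26 and 15 without N12, and 14 and 15 without N33, where the lone line is assumed to vary like the other groups. *Aldh1a2* passed in 13 of 15 settings, *Tcstv1* and *1700123O21Rik* in 9 of 14, *Cnnm3* in 8 of 15, and *Prss58* and *Rtkn* in 6 of 14. Counts at least 1.8-fold higher and lower were 116 and 130 with the offset and 122 and 176 on brighter probe sets, 766 and 767 at 1.5-fold, 133 and 146 at 2-fold, and 112 to 596 and 144 to 766 with 1 line left out (596 and 766 without F35, 112 and 144 without A49, 419 and 327 without N33). Replicate numbers do not pair the lines (correlation of deviations 0.01). Of 38 genes followed through every setting, *Ezh2* (0.14), *Id3* (−0.08) and *Mest* (0.27) reversed, at an equal fibroblast level, and the cause was not tested. Over all 651 genes of the lists and the naming rule, 204 had the other sign at that level, 50 of them with genotypes that did not overlap. Medians of lists moved by less than the spread in 303 of the 340 alternatives that could move them.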
